A study of Mus musculus with 16 samples.

Results

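The genes described here are 3 subunit genes of the AMPA type of glutamate receptor (Gria1, Gria2 and Gria3), the metabotropic glutamate receptor gene Grm8 and Glul, the gene for glutamine synthetase. Members were the probe sets to which the platform annotation gives 1 of these 5 symbols, which made 10 probe sets for 5 genes, out of 10833 probe sets with a single symbol for 8251 genes. Gria2 has 4 of them, Gria1 and Glul have 2 each, and Gria3 and Grm8 have 1 each. The arrays are of a short-oligonucleotide type on which 1 gene can be read by several probe sets, and every one is shown because those of Glul gave different answers.

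The study measured total RNA of mouse spinal cord on 16 single-colour arrays. Of the titled samples, 6 were hybridised as an a and a b array, and their log2 values were averaged, which gave 10 samples. The labels do not say whether an a and a b array are separate animals, so p-values measure only the spread between these samples, which may be technical. The spastic group had 5 samples on 6 arrays: a 6-month female titled Spa-M (2 arrays), 2 females of 2 months titled Spa1 and Spa2, a male of 3 months titled Spa-sev and a male titled 3+ months, whose age is a lower bound of 3 months. The B6C3Fe group, named for a hybrid mouse stock, had 1 sample of 2 arrays from 1-month males. The control group had 4 samples of 2 arrays each, a female and a male at 12 months and a female and a male at 9 months. The spastic strain has a recessive mutation in Glrb, which encodes a subunit of the inhibitory receptor for glycine, and affected mice show stiff muscles and tremor. The genotype and strain of the controls, treatment, what M and sev stand for, and whether RNA of several animals was pooled are not given in the labels. Because the titled ages of the groups do not overlap, group and age cannot be told apart in any 2-group comparison below.

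Values are deposited intensities on a common scale, with a floor of 60.9 (log2 5.93). The median intensity of an array was 289 to 383.6, 14.7% to 24.1% of its values did not exceed the floor, and the number of arrays limits the precision. Glrb itself was at a log2 intensity of 10.57 ± 0.47 in spastic cords (SD, n = 5), 12.95 in B6C3Fe cord and 13.00 ± 0.12 in control cords (SD, n = 4). On the 2 spastic arrays titled male, Xist, a transcript of the inactive X chromosome, was at 10.37 and 10.54, against at most 5.97 on the B6C3Fe and control arrays titled male. The Y-linked gene Eif2s3y was at the floor on the same 2 spastic arrays and between 8.50 and 9.09 on the other arrays titled male. These 2 samples, titled Spa-sev and 3+ months, therefore go against their titled sex, and the calls of members and of gene lists in spastic minus control are given with and without them.

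Glutamate is the main fast excitatory transmitter of the spinal cord. AMPA receptors are glutamate-gated channels built from the subunits GluA1 to GluA4, which Gria1 to Gria4 encode, and a channel that holds edited GluA2, the product of Gria2, lets little calcium through. Grm8 encodes a receptor that signals through G proteins and sits mainly on presynaptic terminals, where it lowers transmitter release. Glutamine synthetase, the product of Glul, is found mainly in astrocytes and joins glutamate to ammonia to make glutamine, which is passed back to neurons.

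The promoters of Gria2 and Glul are shown because Gria2 was lower in spastic than in control cords on 3 probe sets and Glul was higher on 1 of its 2. RefSeq promoters (GRCm38.p6) were matched by symbol for 3 of the 5 genes, Gria2, Grm8 and Glul. The 250 bases before the start of Gria2 (chr3:80802836-80803085, minus strand) and of Glul (chr1:153899679-153899928, plus strand) are given 5′ to 3′ and were searched on both strands for the GC box, with the letters GGGCGG, the CCAAT box and the TATA box, with the letters TATAAA. Capitals mark the matches.
Gria2: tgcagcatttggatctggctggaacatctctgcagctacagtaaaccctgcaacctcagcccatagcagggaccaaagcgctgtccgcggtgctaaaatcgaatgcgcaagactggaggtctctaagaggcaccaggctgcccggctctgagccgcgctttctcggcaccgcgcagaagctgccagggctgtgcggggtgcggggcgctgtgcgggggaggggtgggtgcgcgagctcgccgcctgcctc
Glul: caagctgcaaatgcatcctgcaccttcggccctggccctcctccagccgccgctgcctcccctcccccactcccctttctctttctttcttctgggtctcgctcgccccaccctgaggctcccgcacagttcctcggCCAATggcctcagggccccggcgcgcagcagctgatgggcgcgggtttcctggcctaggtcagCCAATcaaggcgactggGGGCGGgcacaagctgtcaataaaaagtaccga
The GC content was 64.8% in both, against a median of 52.4% over 32851 promoters of the same length, and there were 19 CpG in Gria2 and 15 in Glul, against a median of 6. The Glul stretch holds 2 CCAAT boxes and 1 GC box, which do not overlap, and the Gria2 stretch holds 0 of these letters. A GC box is present in 32.7% of all promoters, a CCAAT box in 33.8% and a TATA box in 12.4%.

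Gria2 was lower in spastic than in control cords on all 3 of its probe sets that could be tested, by 1.93-fold to 4.91-fold. Gria3 and Grm8 were lower too, Gria1 did not pass the test on either probe set, and Glul was 2.83-fold higher on 1 probe set while its other probe set was level. Differences were tested with limma across all 7453 probe sets whose mean log2 intensity was above 7.62, with titled sex in the model and Benjamini-Hochberg adjustment over all of them, and an adjusted p under 0.05 was called. Of the 10 member probe sets 9 passed that filter. The spastic means of Gria2 92946_f_at, Gria3 and Grm8 lay under it, so these 3 passed through the values of the other groups, and counts over the members are a description. The members had 5 probe sets lower, 1 higher and 3 not called. Over all probe sets 19.6% were called, 10.6% lower and 8.98% higher. The median difference was -0.70 over the 9 member probe sets and -0.04 over all tested. With no sex term in the model, 5 member probe sets were again called lower and 1 higher. Without the 2 spastic samples titled male, 3 were called lower and 0 higher. The shares over all probe sets given above belong to the fit with all samples and titled sex. Fewer probe sets were called over all without those 2 samples, as given in the section on processing. The share with no sex term is not given, so the counts in these alternatives are not set against a share.

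**Figure D1:**
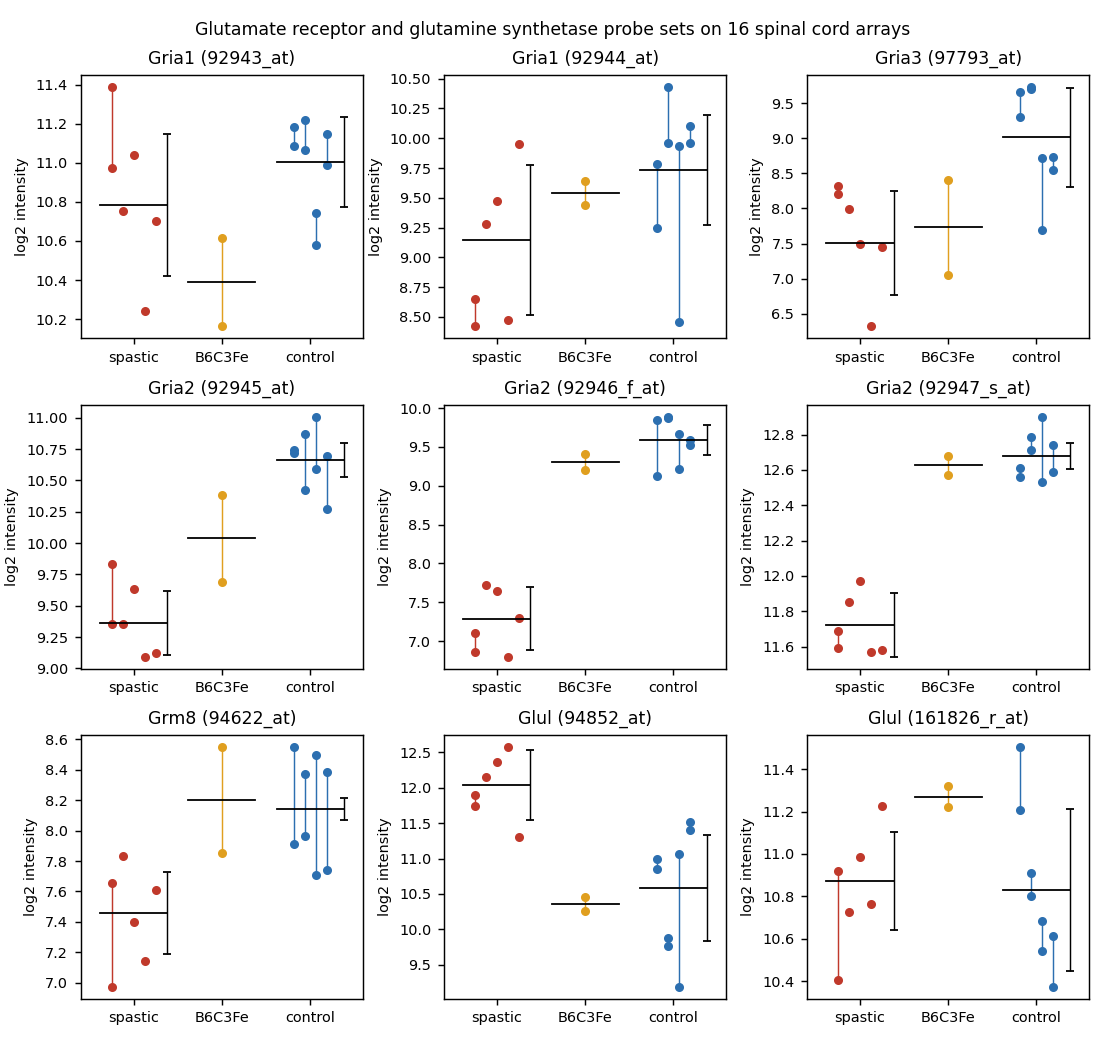
Log2 intensity of the 9 member probe sets above the filter on each of the 16 arrays (vertical axis, its range set per panel) in the spastic, B6C3Fe and control groups. Points are arrays, a thin line joins the a and b arrays of 1 titled sample, horizontal bars are means over samples and error bars are SD over 5 spastic and 4 control samples. The 3 Gria2 panels show spastic arrays below every control array, while the 2 Glul panels differ from each other.

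In what follows, the 5 spastic values are in the order Spa-M, Spa1, Spa-sev, 3+ months and Spa2, and the 4 control values in the order 12-month female, 12-month male, 9-month female and 9-month male. The brightest Gria2 probe set, 92947_s_at, had log2 intensities of 11.64, 11.85, 11.97, 11.57 and 11.58 in spastic samples, 12.63 in the B6C3Fe sample, and 12.58, 12.75, 12.72 and 12.66 in control samples. Every spastic sample lay below the B6C3Fe and all control samples, and the spread within each group was small beside the gap. The fitted difference between spastic and control was -0.95 (SE 0.11, adjusted p = 0.000659), a 1.93-fold lower level.

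Gria2 92945_at was at 9.59, 9.35, 9.64, 9.09 and 9.12 in spastic samples, 10.04 in the B6C3Fe sample, and 10.73, 10.65, 10.80 and 10.49 in control samples. The groups again did not overlap, and the B6C3Fe sample lay between them. The spastic level was 2.49-fold lower than control (log2 difference -1.31, SE 0.14, adjusted p = 0.000568).

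Gria2 92946_f_at was at 6.98, 7.73, 7.64, 6.80 and 7.30 in spastic samples, 9.31 in the B6C3Fe sample, and 9.49, 9.88, 9.44 and 9.56 in control samples. All spastic samples were far below the other 5, and the lowest of them came to within 1 log2 unit of the floor. This was the largest difference among the member probe sets, 4.91-fold lower in spastic than in control cords (log2 difference -2.30, SE 0.22, adjusted p = 0.000372). On single arrays as well, the spastic and control ranges of these 3 Gria2 probe sets did not overlap. This adds no replicates, since a and b arrays may not be separate animals, and the share over all probe sets was not counted. Without the 2 spastic samples titled male, 92945_at differed from control by -1.41 (adjusted p = 0.00892), 92946_f_at by -2.13 (adjusted p = 0.0093) and 92947_s_at by -0.96 (adjusted p = 0.0116), so all 3 calls held. The fourth probe set of Gria2, 162076_r_at, was at the floor on all 16 arrays, with intensities of 0.164 to 42.8, and gives no measure of the gene.

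The 3 Gria2 probe sets had the same direction and different sizes. The difference of 92946_f_at exceeded that of 92945_at by -0.99 and that of 92947_s_at by -1.34 log2 units, each with p = 0.0159 in an exact 2-sided permutation test over 5 spastic and 4 control samples, the smallest p this design allows (adjusted p = 0.0317 over 6 pairs of probe sets, chosen after their values were seen). Between 92945_at and 92947_s_at it was -0.35 (exact permutation p = 0.0476, adjusted p = 0.0571). As the pairs were picked on values already seen, these p-values are descriptions and do not test whether the sizes differ. In addition, 92946_f_at passed the filter through the B6C3Fe and control values. On this array type the suffixes f and s mark probe sets whose probes can also match related transcripts and r marks probes chosen under relaxed rules. The sources used here do not give the parts of the transcripts that the probes match, so splice forms and cross-matching cannot be told apart.

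Gria1 encodes the GluA1 subunit. Its probe set 92943_at was at 11.18, 10.75, 11.04, 10.24 and 10.70 in spastic samples, 10.39 in the B6C3Fe sample, and 11.14, 11.15, 10.66 and 11.07 in control samples. Its other probe set, 92944_at, was at 8.54, 9.28, 9.47, 8.48 and 9.95 in spastic samples, 9.54 in the B6C3Fe sample, and 9.52, 10.20, 9.19 and 10.03 in control samples. The spastic and control ranges overlapped on both. The spastic minus control difference was -0.22 (95% interval -0.63 to 0.19, adjusted p = 0.431) for 92943_at and -0.57 (95% interval -1.26 to 0.12, adjusted p = 0.224) for 92944_at. The second interval still holds a level more than 2-fold lower.

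Gria3, the GluA3 subunit gene, is read by 97793_at alone. It was at 8.26, 7.99, 7.50, 6.32 and 7.46 in spastic samples, 7.73 in the B6C3Fe sample, and 9.48, 9.72, 8.20 and 8.65 in control samples. The highest spastic sample, Spa-M, lay just above the lowest control, the 9-month female, and the B6C3Fe sample lay within the spastic range. The spastic level was 2.92-fold lower than control (log2 difference -1.55, SE 0.40, adjusted p = 0.0219). Without the 2 spastic samples titled male the difference was -0.94 (adjusted p = 0.229), and in a model of log2 age that counted B6C3Fe as a control it was -0.91 (adjusted p = 0.172), so this call ended under both. Without the lowest sample, 3+ months, the difference was -1.21 and no longer called (adjusted p = 0.0514). The call was also lost without the 12-month female control (adjusted p = 0.0791) and without the 12-month male control (adjusted p = 0.0605).

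Gria4, the remaining AMPA subunit gene, is on the array as 101710_at but lay under the filter and was not tested. It was at 6.08, 6.20, 6.26, 5.93 and 6.24 in spastic samples, 6.66 in the B6C3Fe sample, and 8.57, 7.80, 6.35 and 7.80 in control samples. The spastic samples lay near the floor and below all 4 controls, of which the 9-month female was the lowest.

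Grm8, read by 94622_at, was at 7.31, 7.83, 7.40, 7.14 and 7.61 in spastic samples, 8.20 in the B6C3Fe sample, and 8.23, 8.17, 8.10 and 8.06 in control samples. Every spastic sample lay below the other 5, though single arrays of the groups overlapped. The spastic level was 1.63-fold lower than control (log2 difference -0.70, SE 0.19, adjusted p = 0.0254). Array a minus array b was -0.79 to -0.41 log2 units in the 4 control samples and -0.68 in Spa-M, against 0.70 in B6C3Fe, and 5 of the 6 spastic arrays carry the letter a. With letter a arrays alone the difference was -0.45 (adjusted p = 0.256), and without the 2 spastic samples titled male it was -0.58 (adjusted p = 0.197), so the call of Grm8 ended in both. It was also lost when any of the control samples of 12 months, the 9-month male control, Spa-M or 3+ months was left out, with adjusted p between 0.0539 and 0.0748.

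Over the member probe sets, all 5 spastic samples lay below all 4 controls for 4 of 9, the 3 of Gria2 and that of Grm8, against 10.8% of all probe sets tested. For 0 of the 9 did all spastic samples lie above all controls, against 8.57% of all probe sets. The other 5 overlapped. Of the 4, 3 read the same gene, Gria2. The spastic means of Grm8 and of the faintest Gria2 probe set tested lay under the filter. These passed it through the values of the other groups, so the 4 of 9 is a description and no test against all probe sets.

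Glul 94852_at was at 11.81, 12.15, 12.36, 12.57 and 11.30 in spastic samples, 10.36 in the B6C3Fe sample, and 10.92, 9.82, 10.13 and 11.46 in control samples. The lowest spastic sample, Spa2, lay below the highest control, the 9-month male, and the other 4 spastic samples lay above all controls. The spastic level was 2.83-fold higher than control (log2 difference 1.50, 95% interval 0.81 to 2.19, adjusted p = 0.00874). Without the 2 spastic samples titled male, which had the highest levels, the difference was 1.23 and no longer called (adjusted p = 0.137).

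Glul 161826_r_at was at 10.66, 10.73, 10.98, 10.76 and 11.23 in spastic samples, 11.27 in the B6C3Fe sample, and 11.36, 10.86, 10.61 and 10.49 in control samples. The groups overlapped throughout, and Spa2, the lowest spastic sample on the other probe set, was the highest on this one. The fitted difference was 0.03 (95% interval -0.36 to 0.42, adjusted p = 0.925), and the upper end of its interval is a 1.34-fold higher level, under the 2.83-fold of 94852_at. The mean spastic minus control changes of the 2 probe sets of Glul were 1.41 log2 units apart, which describes the disagreement known when the genes were chosen, and those of Gria1 were 0.37 apart. Over the 10 samples the Pearson correlation of the Glul probe sets was -0.205, against 0.347 for the 2 of Gria1 and 0.927 to 0.988 for the 3 of Gria2. The 10 points share their groups, so these values are descriptions. Which of the 2 Glul probe sets measures the gene better was not tested.

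**Figure D2:**
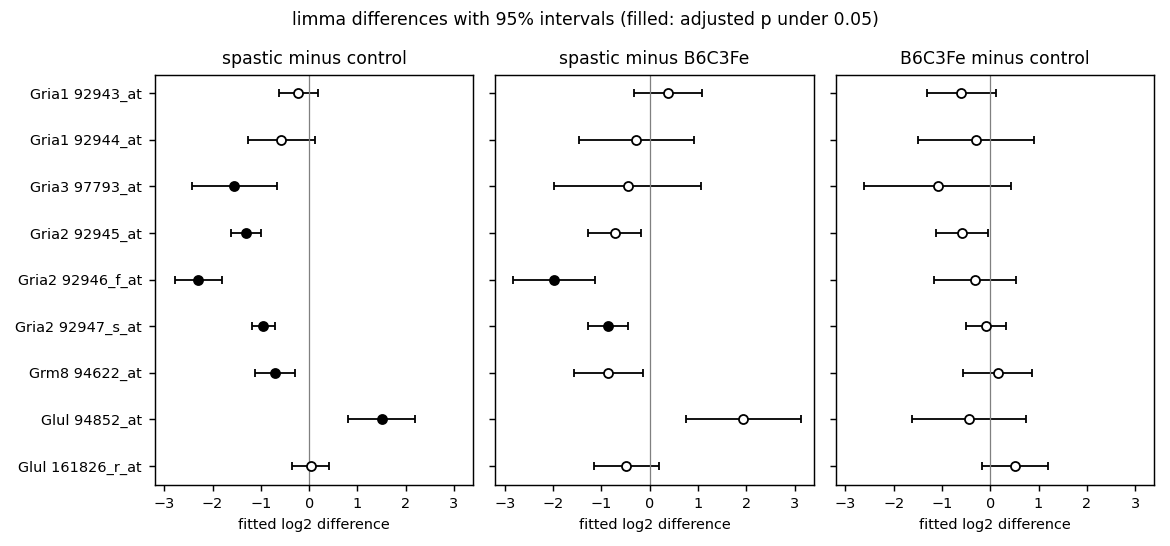
Fitted log2 differences (horizontal axis) with 95% intervals of the 9 member probe sets for spastic minus control, spastic minus B6C3Fe and B6C3Fe minus control. Filled points had an adjusted p under 0.05 and open points did not; all 3 Gria2 probe sets are below 0 in the first panel, from -2.30 to -0.95, and 0 of 9 points are filled in the third.

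Against the B6C3Fe sample, Gria2 was again lower in spastic cords on 2 probe sets, and no other member probe set was called. Gria2 92946_f_at differed by -1.98 (SE 0.38, adjusted p = 0.0327) and 92947_s_at by -0.86 (SE 0.19, adjusted p = 0.0425), while 92945_at was at -0.73 (adjusted p = 0.147). Over all probe sets 1.89% were called. Glul 94852_at was at 1.94 (adjusted p = 0.0942), Glul 161826_r_at at -0.48 (adjusted p = 0.397), Grm8 at -0.86 (adjusted p = 0.187) and Gria3 at -0.46 (adjusted p = 0.739). Gria1 was at 0.37 for 92943_at (adjusted p = 0.534) and -0.28 for 92944_at (adjusted p = 0.801). This comparison has 1 B6C3Fe sample, which is assumed to vary like the others. The calls of the 2 Gria2 probe sets were lost without the 2 spastic samples titled male, at -1.72 (adjusted p = 0.241) for 92946_f_at and -0.88 (adjusted p = 0.257) for 92947_s_at. Leaving out 1 sample ended the call of 92946_f_at in 4 of 9 fits and that of 92947_s_at in 8 of 9. Leaving out the 12-month male control brought in a call for Glul 94852_at, at 2.15 (adjusted p = 0.0248).

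Between B6C3Fe and control, 0 of the 9 member probe sets were called by limma, where 0.349% of all probe sets were. The lowest adjusted p of a member was 0.303, for Gria2 92945_at at -0.59. The 3 comparisons share samples, and their values for a probe set are not independent of each other. Gria3 was at -1.09 (95% interval -2.62 to 0.44, adjusted p = 0.502), a wide interval that holds both no difference and the value of spastic minus control.

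**Figure D3:**
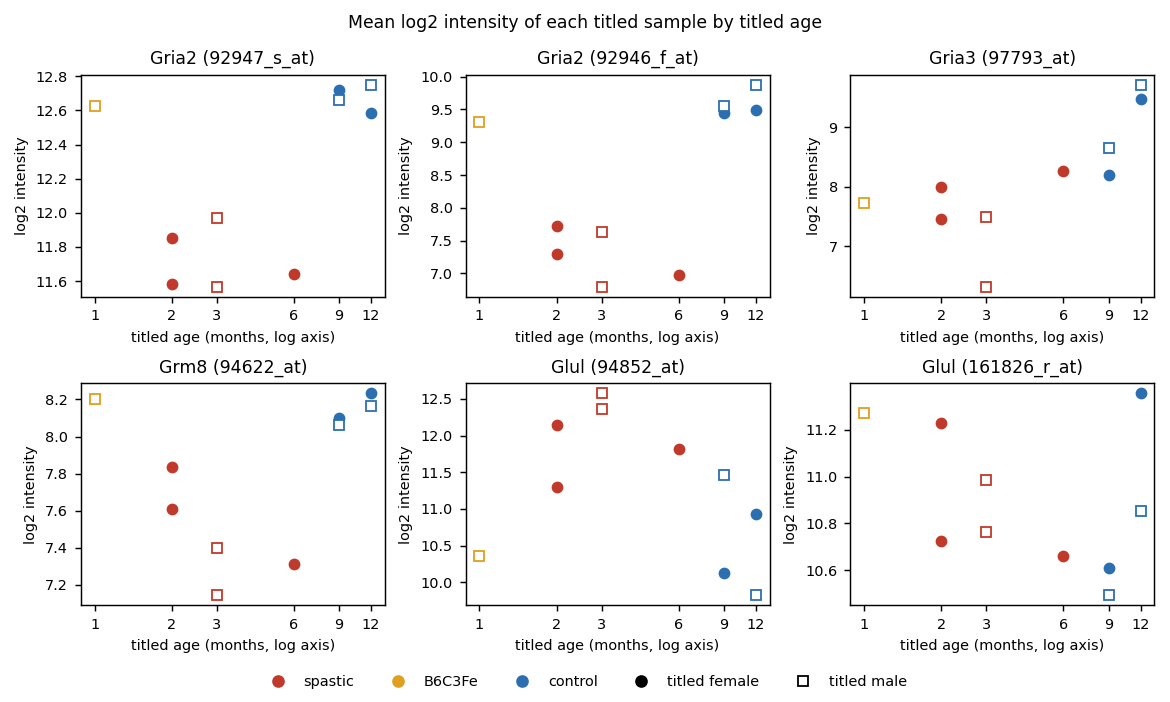
Log2 intensity of 6 member probe sets (vertical axis) against titled age in months (horizontal log axis), 1 point per titled sample, coloured by group, filled for titled female and open for titled male. The spastic points of Gria2 lie below the younger B6C3Fe sample and the older controls, whereas for Gria3 the B6C3Fe sample, at 7.73, lies within the spastic range of 6.32 to 8.26.

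Age within the controls was compared at 12 and 9 months, with 2 samples at each. Gria3 was at 9.48 and 9.72 in the 12-month samples and 8.20 and 8.65 in the 9-month samples, a difference of 1.18 (unadjusted p = 0.041, adjusted p = 0.886 in limma). Glul 161826_r_at was at 11.36 and 10.86 at 12 months and 10.61 and 10.49 at 9 months, a difference of 0.55 (adjusted p = 0.886). In both, each 12-month sample was above each 9-month sample, and neither passed the adjusted test. The same order held for Gria1 92943_at (11.14 and 11.15 against 10.66 and 11.07) and Grm8 (8.23 and 8.17 against 8.10 and 8.06). With 2 samples at each age such an order arises easily by chance, and its share over all probe sets was not counted. The call rate over all probe sets was 0%, with 402 at an unadjusted p under 0.05. The 3 Gria2 probe sets were at -0.02 to 0.18 in this comparison.

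Female minus male gave 0 calls among the members and 0% of all probe sets, with 445 at an unadjusted p under 0.05 and 0 of them a member. The lowest adjusted p of a member was 0.820, for Glul 94852_at at -0.44. Since 2 spastic samples go against their titled sex, this comparison is of titles.

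The Spa-sev sample gave fitted differences from the other 4 spastic samples of 0.08 for Glul 94852_at to 0.52 for Gria2 92945_at over the 9 member probe sets. This fit holds the titled sex, against which this sample goes, and with no sex term Grm8 was at -0.08 and Gria3 at -0.01. When 1 other sample was left out, the sign turned for 5 of the 9, with Gria3 reaching -0.75. Of the 9 member probe sets 0 were called in limma (every adjusted p = 0.995), where 0.0134% of all probe sets were. With 1 sample titled sev, only a difference large beside the spread of single samples could have been called.

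Glutamate genes were described from lists compiled for this tissue, in the fit that called 10.6% of all probe sets lower and 8.98% higher. The 6 AMPA receptor probe sets tested are the member probe sets of Gria1, Gria2 and Gria3 already described. Of these, 4 were lower, from 2 genes, and 0 higher, with a median difference of -1.13. Of 7 probe sets of NMDA, kainate and delta receptor genes, 1 was higher and 0 lower, with a median of 0.28. The called one was 99160_s_at of Grina, a gene named as an NMDA receptor-associated protein, at 0.76 (adjusted p = 0.0301), while its other probe set, 99161_at, was at 0.27 (adjusted p = 0.180). Of the 8 metabotropic receptor genes listed, Grm8 was the only 1 with a probe set of its own symbol on the array, so the others were not measured.

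Of 15 probe sets of scaffold and trafficking proteins 1 was called, where 19.6% of all probe sets were, and the list median was 0.15. The called one was that of Cnih2, an auxiliary subunit that slows AMPA receptor closing, at 0.49 (adjusted p = 0.0276). Of 3 glutamate transporter probe sets 1 was called, that of Slc1a6, a neuronal glutamate transporter, at 0.74 (adjusted p = 0.00317). Slc1a2, the main astrocyte glutamate transporter, was at -0.35 (adjusted p = 0.474). Of 8 probe sets for glutamate and glutamine metabolism, Glul 94852_at was the 1 higher and Glud1, glutamate dehydrogenase, the 1 lower, at -0.46 (adjusted p = 0.0311), and the median was -0.23. Without the 2 spastic samples titled male, Slc1a6 was still called, and the scaffold list, the metabolism list and the list of NMDA, kainate and delta receptors had 0 calls each. With the 3′ to 5′ ratio of Pcx described below in the model, each of these 4 lists had 0 calls. Both of these fits called fewer probe sets over all than the fit with 19.6%. A count of 0 in them does not show that a difference was absent. Over all alternatives the call of Grina 99160_s_at was lost in 11 of 21, that of Cnih2 in 9 of 22 and that of Glud1 in 9 of 22.

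**Figure D4:**
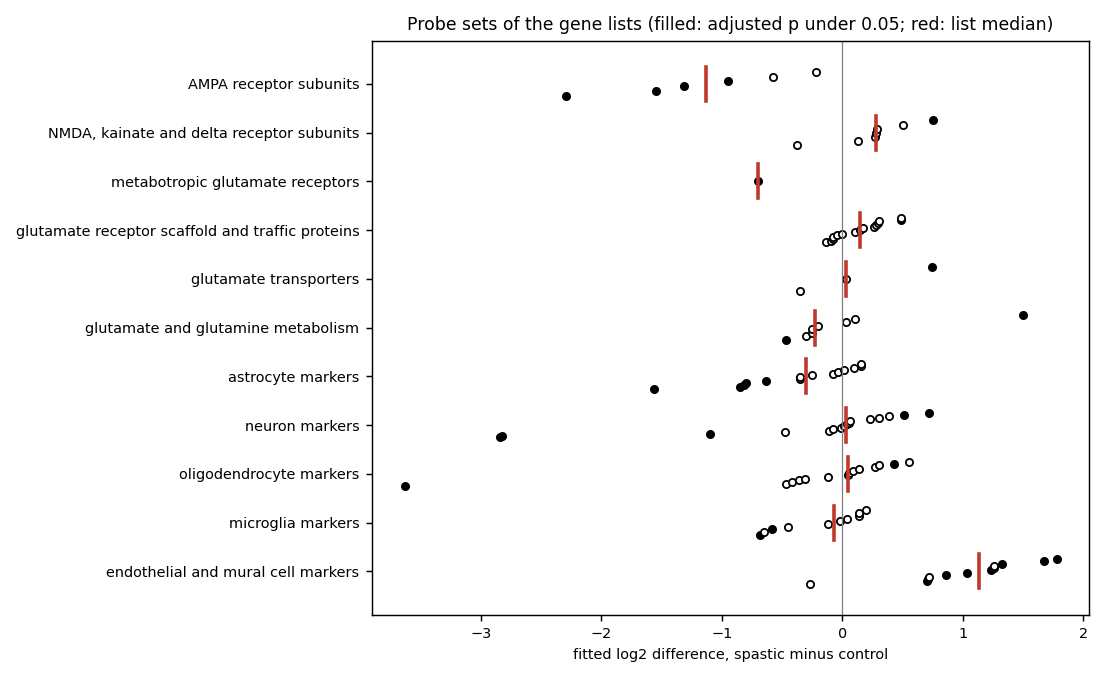
Fitted log2 difference, spastic minus control (horizontal axis), of every tested probe set of the glutamate and cell type lists (rows). Filled points had an adjusted p under 0.05, open points did not, and red bars are list medians, which run from -1.13 for AMPA receptor subunits to 1.14 for endothelial and mural cell markers.

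Marker lists of the cell types of the cord were read in the same fit, where 19.6% of all probe sets were called. In bulk tissue, fewer cells of a type and less RNA per cell cannot be told apart. Markers of astrocytes, the main cells with glutamine synthetase, had 5 of 14 probe sets lower and 0 higher, with a median of -0.30, and a mean log2 level per sample of 10.87 to 11.25 in spastic samples, 11.63 in B6C3Fe and 11.33 to 11.66 in controls. Their lower probe sets included those of the water channel Aqp4, at -1.57 and -0.82, and of the cotransporter Slc4a4, at -0.85, while the 2 of Gfap were at 0.16 and -0.04 and not called. Glul 94852_at was higher in this fit, at 1.50. Glul 161826_r_at was at 0.03, and its interval of -0.36 to 0.42 holds the astrocyte median of -0.30. Against the B6C3Fe sample the astrocyte median was -0.41, with Glul 161826_r_at at -0.48 and 94852_at at 1.94. Whether either Glul probe set departs from the astrocyte markers was not tested.

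Neuron markers had 2 of 16 probe sets higher and 3 lower, with a median of 0.03 and a mean level of 11.60 to 11.89 in spastic samples, 11.84 in B6C3Fe and 11.89 to 12.17 in controls. The lower ones were Map2 at -2.85, Syt1 at -2.83 and Nefl at -1.10, and the higher ones, named after their values were seen, were Syp at 0.72 and Tubb3 161612_f_at at 0.51. Endothelial and mural cell markers had 9 of 12 probe sets higher and 0 lower, with a median of 1.14 and a mean level of 9.26 to 9.56 in spastic samples, 8.26 in B6C3Fe and 8.22 to 8.41 in controls, led by Acta2 at 1.78, Vwf at 1.67 and Slc2a1 at 1.33. Oligodendrocyte markers had 1 of 14 lower, Ugt8a at -3.64, and 1 higher, Sox10 102856_at at 0.43, and microglia markers had 2 of 10 lower, Tyrobp at -0.68 and Ctss at -0.58. The second probe sets of Tubb3, 160462_f_at, and of Sox10, 100283_at, were not called. Over all alternatives the call was lost in 15 of 22 for Tyrobp, 11 of 22 for Slc4a4 and 11 of 21 for Tubb3 161612_f_at. It was lost in 8 of 22 for Sox10 102856_at, 7 of 22 for Ctss and 1 to 5 for each other called marker named above. The part of these shifts in the member differences was not tested. Without the 2 spastic samples titled male, fewer probe sets were called over all, as given in the section on processing. In that fit AMPA subunits had 0 higher and 3 lower, astrocyte markers 0 and 0, and neuron markers 1 and 2. Endothelial and mural cell markers had 5 and 0, oligodendrocyte markers 1 and 1, and microglia markers 0 and 0. A count of 0 in that fit does not show that a shift was absent.

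A measure of RNA quality and labelling, the log2 ratio of the 3′ to the 5′ control probe set of Pcx, was 2.38 ± 0.38 in spastic samples (SD, n = 5), 1.78 in B6C3Fe and 1.73 ± 0.22 in controls (SD, n = 4). The spastic minus control difference was 0.65 (exact 2-sided permutation p = 0.0317, adjusted p = 0.127 over 4 ratios). The ratios of Gapdh, Actb and Tfrc differed by -0.06, -0.32 and -0.51, with exact permutation p of 0.762, 0.302 and 0.206. For Actb the B6C3Fe sample lay apart, at -2.25 (arrays at -3.29 and -1.21), against -0.56 to 0.58 in spastic samples and -0.29 to 0.71 in controls. Its Gapdh ratio was -0.33 and its Tfrc ratio 0.94, within the range of the other samples. What this means for the B6C3Fe comparisons was not tested. With the Pcx ratio in the model, 36 probe sets were called in spastic minus control, and of the members Gria2 92945_at, at -1.33, and 92946_f_at, at -1.82, were still called (adjusted p = 0.0448 for both). Gria2 92947_s_at was at -0.85 (adjusted p = 0.0685), Glul 94852_at at 1.53 (adjusted p = 0.162), Gria3 at -0.83 (adjusted p = 0.480) and Grm8 at -0.43 (adjusted p = 0.440). Of the cell type lists, endothelial and mural cell markers had 1 of 12 probe sets called in this fit, and the other 4 lists had 0.

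**Figure D5:**
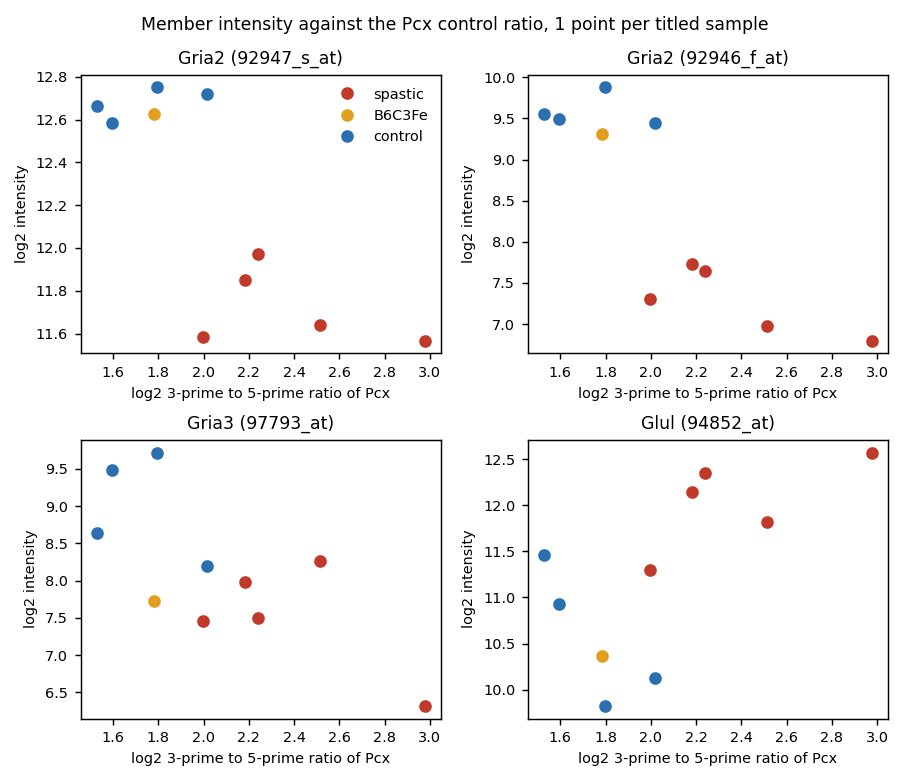
Log2 intensity of 4 member probe sets (vertical axis) against the log2 3′ to 5′ ratio of Pcx (horizontal axis), 1 point per titled sample, coloured by group. Spastic samples lie from 2.00 to 2.98 on the horizontal axis and controls from 1.53 to 2.02. The control point at 2.02, the 9-month female, is the mean of array a at 2.72 and array b at 1.31. It and the spastic sample Spa2, at 2.00, are therefore not matched in this ratio.

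Array a of the 9-month female controls stood apart in the same ratio, at 2.72, against 1.31 on array b. On the member probe sets its log2 value differed from array b by -1.88 for Glul 94852_at, -1.48 for Gria1 92944_at, -1.03 for Gria3 and -0.79 for Grm8. For Gria2 it differed by 0.41 on 92945_at, -0.46 on 92946_f_at and 0.37 on 92947_s_at. With array b alone for that sample, all 6 calls in spastic minus control held, with Glul 94852_at at 1.24 (adjusted p = 0.0182), Gria3 at -1.69 (adjusted p = 0.00702) and Grm8 at -0.81 (adjusted p = 0.0101).

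Gria2 92945_at and 92946_f_at were called lower in spastic than in control cords in all 21 alternatives that tested them. The setting with 1 probe set per gene, which keeps 92947_s_at for Gria2, did not include them. Their differences ranged from -1.43 to -0.99 and from -2.41 to -1.82, with the highest adjusted p at 0.0448 in both.

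The probe sets whose levels ran most like the members over the 10 samples were found by Pearson correlation, 3 for each member probe set. For Gria2 they were Actn3, Tug1 and Tdp2 for 92945_at (0.959 to 0.973), Nr1d2, Eny2 and Ide for 92946_f_at (0.975 to 0.977), and Rab2a, Glrb and Mtm1 for 92947_s_at (0.960 to 0.967). Glrb, the mutated gene, was thus the second nearest to the brightest Gria2 probe set, at 0.960. For Gria3 they were Ppp3ca, Akap9 and Rala (0.971 to 0.977), and for Grm8 Polb, Rfc5 and Pex13 (0.962 to 0.971). For Glul they were Ehmt2, Agap3 and Furin on 94852_at (0.946 to 0.963) and Drd4, Wdhd1 and Ctrl on 161826_r_at (0.931 to 0.943), with no gene in common. For Gria1 they were Noct, Ifi27 and Glg1 on 92943_at (0.909 to 0.921) and Rfk, Fhl1 and Sec62 on 92944_at (0.928 to 0.964). The 10 points share their groups, and these values are descriptions.

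Among the members themselves, Grm8 ran with Gria2 92946_f_at at 0.939, and Glul 94852_at ran against it at -0.816. Gria1 92943_at was nearest to Gria3, at 0.756, and at 0.232 to 0.426 with the Gria2 probe sets.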

How the data were processed

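The 16 arrays carry labelled RNA of mouse spinal cord. The authors' deposited table holds 1 linear intensity for each of 12488 probe sets; the software behind these intensities is not named in the sources used here. The mean intensity after trimming 2% at each end was 800.4 to 800.5 on every array, so the values were taken as already scaled and were not normalized again. Control probe sets (66) were left out. Probe sets were named from the platform annotation (10833 with 1 symbol, 396 with several, 1193 with none). Of the first, 10817 were matched by Entrez ID to RefSeq, and 0 symbols changed.

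Intensities under the 20th percentile of all values (60.9) were raised to it and log2 was taken, so differences near this floor are understated. Probe sets with a mean log2 above the 40th percentile (7.62) were tested. Arrays a and b of a title were averaged, and limma 3.58.1 in R 4.3.3 (lmFit, eBayes with trend) was fitted to all 10 samples with group and titled sex, 2-sided. A positive difference is a higher level in the first-named group. Exact permutation tests used scipy 1.17.1, and those between probe sets were added after seeing the data. The fit was tested on simulated data. Named beside the members were up to 4 further called genes of each glutamate list, the other AMPA subunit, up to 3 called genes of each cell type list, the 3 most alike genes of each member probe set, and Glrb, Xist and Eif2s3y as checks. The members and lists were chosen with earlier results of these data known.

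The alternatives were floors at the 10th and the 40th percentile, no filter on low values, quantile normalization, arrays with the titled sample as a random block (consensus correlation 0.226), letter a arrays only, 1 probe set per gene, no sex term, the Pcx ratio as a covariate, no spastic samples titled male, array b alone for the 9-month female controls, log2 of age in the model with B6C3Fe counted as a control, and leaving out each sample.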

Additional observations from a re-analysis of the deposited data

Results flagged for a closer look

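Of 18 groups of samples tested for a sample far from the rest, 1 had one, and chance alone marks about 1 group in 20. For Gria1 92943_at the 9-month female control sample was at a log2 intensity of 10.66, while the nearest other control was at 11.07. The gap was 0.842 of the whole range of the 4 control samples. The a and b arrays of this sample were both low on this probe set, at 10.58 and 10.74.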

How the results depend on the processing

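No direction of a call was reversed under any alternative. For spastic minus control, 1462 probe sets were called, against 795 with letter a arrays alone, 36 with the Pcx ratio as a covariate, 408 without the 2 spastic samples titled male, 784 with log2 of age in the model and B6C3Fe counted as a control, and 816 to 1461 when 1 sample was left out. The lowest of these left out the 12-month female control, and 948 were called without the 12-month male and 891 without the 9-month male control. Among the members, with no filter the calls of Glul 94852_at (1.50, adjusted p = 0.0558) and Gria3 (-1.55, adjusted p = 0.0918) were lost, where more probe sets were tested. Grm8 was lost with quantile normalization (-0.49, adjusted p = 0.0678), and letter a arrays alone gave -0.45 for Grm8 and -1.49 for Gria3, neither called. With the Pcx ratio Gria2 92947_s_at was at -0.85, Glul 94852_at at 1.53, Gria3 at -0.83 and Grm8 at -0.43, and without the spastic samples titled male Glul 94852_at was at 1.23, Gria3 at -0.94 and Grm8 at -0.58, none of them called. Gria3 was at -0.91 and not called with log2 of age. Leaving out 1 sample gave -1.98 to -1.21 for Gria3, -0.77 to -0.63 for Grm8 and 1.15 to 1.74 for Glul 94852_at, whose call was kept each time. Gria1 changed sign without a call, to 0.15 for 92943_at and 0.47 for 92944_at with the Pcx ratio, and to 0.13 for 92943_at with log2 of age.

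For spastic minus B6C3Fe, 141 probe sets were called, against 336 with no filter, 383 with the random block, 10 with letter a arrays, 13 with the Pcx ratio, 5 without the spastic samples titled male, 277 with array b alone, and 13 to 240 when 1 sample was left out, the lowest without Spa-sev and the highest without the 9-month female control. The call of Gria2 92946_f_at was lost in 8 of 19 and that of 92947_s_at in 12 of 20 alternatives. For B6C3Fe minus control, 26 were called, against 251 with no filter, 53 with quantile normalization, 265 with the random block, 10 with letter a arrays, 48 with no sex term, 58 with the Pcx ratio, 9 without the spastic samples titled male, 48 with array b alone, and 5 to 17 when 1 sample was left out, the lowest without the 9-month male control. For 12 minus 9 months 24 were called with no filter and 2 with the random block, and for female minus male 3 without the spastic samples titled male, against 0 in limma otherwise. For sev minus other spastic 1 was called, against 17 with no filter, 0 with the 40th percentile floor, the random block, letter a arrays, the Pcx ratio or array b alone, and 0 to 2 when 1 sample was left out, the highest without 3+ months. The causes of these changes were not tested. No paired analysis was possible because the titles give no replicate numbers that pair samples across groups. Signals near the floor limit what can be read from Gria4, Gria3, Grm8 and, in spastic samples, Gria2 92946_f_at. The 1 B6C3Fe sample, whose Actb ratio lay apart from all others, limits both of its comparisons.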
